A study of Homo sapiens with 6 samples.

Results

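Nonsense-mediated mRNA decay (NMD) was examined through 9 of its factors, the UPF genes UPF1, UPF2, UPF3A and UPF3B and the SMG genes SMG1, SMG5, SMG6, SMG8 and SMG9. They were chosen by name for their role in the pathway, and all 9 were found among the 17153 genes measured. RNA came from SNU449, an established human hepatocellular carcinoma cell line, taken 48 h after transfection. A small interfering RNA directed at OXTR, the oxytocin receptor gene, had been used for 3 libraries (siOXTR) and a control one for the other 3 (siControl). All 6 libraries therefore shared the cell line, the transfection and its duration, and no untransfected cells were analysed here. Levels are FPKM, which counts fragments relative to gene length and to the size of the library. Nothing in the labels says that libraries of one group were separate cultures, so the p-values rest on a spread that may be purely technical.

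NMD removes mRNAs on which translation stops too early. UPF1, an RNA helicase, binds the stalled ribosome's release factors and is phosphorylated by the kinase SMG1, and UPF2 and UPF3 link it to the exon junction complex, a protein mark left by splicing. Phosphorylated UPF1 recruits SMG6, which cuts the mRNA, and SMG5, which helps to bring in deadenylation and decapping enzymes. The pathway also acts on many normal transcripts, and the mRNAs of several of its own factors are targets, so that their levels are known to rise in human cells when the pathway is inhibited.

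OXTR was at 25.9 ± 1.13 FPKM (SD, n = 3) in siControl and at 6.09 ± 0.0569 FPKM in siOXTR, 4.24-fold lower (log2 change -1.92, limma adjusted p = 3.45e-11), in the direction of the labels. FPKM summed to between 412464 and 415902 per library in siControl and between 424168 and 429456 in siOXTR. The sums were thus apart by group, and their part in the small changes was not tested. No library stood apart from its group, with correlations of log2 values across genes between 0.9974 and 0.9979 within a group. Of the hepatocyte-defining genes ALB, APOA1, APOB, TF, HNF4A and ASGR1, each had a mean under 1 FPKM in both groups, and APOB was listed at 0 in all 6 libraries. The fibrinogen genes FGA and FGB were measured well above that and differed between the groups. FGA was at 10.3 FPKM in siControl and 1.24 FPKM in siOXTR (log2 change -2.34, limma adjusted p = 6.48e-10), and FGB at 42.1 and 3.55 FPKM (-3.25, 2.89e-12). SERPINA1, too low to be tested, was at 0.91 and 0.257 FPKM. The part of these shifts in the changes of the NMD factors was not tested. TTR was not analysed here. Of markers of leukocytes, endothelium and stroma, PTPRC and PECAM1 had means under 1 FPKM in both groups and CD68 was at 5.99 FPKM in siControl and 10.7 FPKM in siOXTR. CD3E, LYVE1 and DCN were not analysed here.

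The factors split. UPF2, SMG1 and UPF3B rose in siOXTR, UPF1, SMG6, SMG8, SMG5 and SMG9 fell, and UPF3A did not pass the threshold. Only UPF2 moved by more than the median gene: its level was 1.85-fold higher, and UPF1, the central helicase, was 1.31-fold lower. Thus 8 of 9 factors (88.9%) passed an adjusted p of 0.05, where 82.5% of the 11655 genes tested did, so the count itself is near the background of this comparison. For 8 of 9 factors no siOXTR library lay within the siControl range or the reverse, as for 83% of all genes tested. In bulk RNA, less of a transcript per cell and fewer cells holding it cannot be told apart. By direction, 3 of 9 were higher (37.7% of all genes tested) and 5 of 9 lower (44.8%). The median log2 change of the 9 was -0.10, beside -0.06 for all genes tested. Under median-ratio scaling SMG5 and SMG9 no longer passed, and the split became 3 higher and 3 lower. The shares of all genes tested given above are those of the main fit, not of that scaling.

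**Figure D1:**
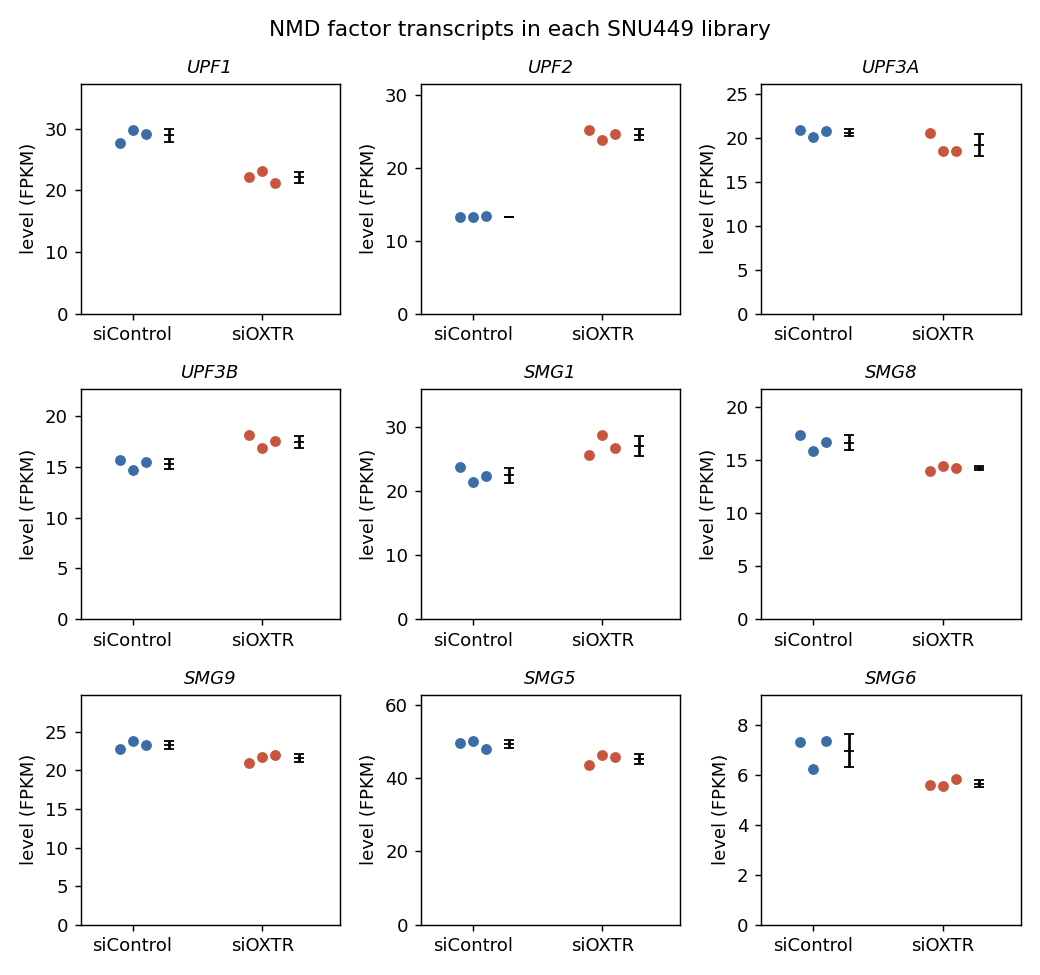
Level of each NMD factor in FPKM (vertical axes from 0) in the 3 siControl (blue) and 3 siOXTR (red) libraries, with the mean and SD as bars at the right of each group. The groups are apart in every panel except UPF3A, and the widest gap is that of UPF2, from 13.3 to 24.6 FPKM.

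UPF2, the adaptor that binds both UPF1 and UPF3, had the largest change. It was at 13.27, 13.32 and 13.37 FPKM in siControl and at 25.3, 23.82 and 24.76 FPKM in siOXTR. The siControl libraries were nearly level with each other, and every siOXTR library was far above them. The means were 13.3 ± 0.05 and 24.6 ± 0.749 FPKM (SD, n = 3). The log2 change on the log2(FPKM + 1) scale was 0.84 (SE 0.0351, 95% confidence interval 0.76 to 0.92, limma adjusted p = 3.95e-09). Of all genes tested, 7.03% had a higher log2 change.

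UPF1 moved the other way. Its level was 27.7, 29.83 and 29.1 FPKM in siControl and 22.1, 23.08 and 21.2 FPKM in siOXTR. The lowest siControl library was above the highest siOXTR library. The means were 28.9 ± 1.08 and 22.1 ± 0.94 FPKM (SD, n = 3), with a log2 change of -0.37 (SE 0.0407, interval -0.46 to -0.28, limma adjusted p = 9.11e-06). This size was close to the median of all genes tested, 0.37 without regard to sign.

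The starts of UPF2 and UPF1 are shown because these factors had the largest changes, in opposite directions. Each line gives the 250 bases before the outermost annotated start of the gene, 5′ to 3′ on the gene's strand, from RefSeq on build GRCh38.p14. UPF2 lies on the minus strand (chr10:12043171-12043420) and UPF1 on the plus strand (chr19:18831709-18831958). Capitals mark CCAAT boxes (CCAAT or its complement ATTGG), the E-box CACGTG and the GC box GGGGCGGGG or its complement.
UPF2: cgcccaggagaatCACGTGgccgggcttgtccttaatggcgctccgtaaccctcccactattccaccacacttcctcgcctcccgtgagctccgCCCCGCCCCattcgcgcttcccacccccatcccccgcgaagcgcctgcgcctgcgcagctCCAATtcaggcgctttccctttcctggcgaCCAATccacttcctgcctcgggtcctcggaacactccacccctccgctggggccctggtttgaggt
UPF1: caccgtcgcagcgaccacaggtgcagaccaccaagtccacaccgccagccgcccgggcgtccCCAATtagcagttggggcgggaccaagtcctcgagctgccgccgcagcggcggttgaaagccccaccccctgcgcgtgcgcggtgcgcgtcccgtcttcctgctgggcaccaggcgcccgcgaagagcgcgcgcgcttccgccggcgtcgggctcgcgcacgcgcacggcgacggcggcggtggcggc
The UPF2 window held 2 CCAAT boxes, an E-box and a GC box, and the UPF1 window held 1 CCAAT box and no E-box. The content depends on the start chosen: another UPF2 window (chr10:12042810-12043059) held a GC box and no CCAAT box or E-box. A CCAAT box was found in 5 of 15 windows of the factors (some genes have several starts, and no window of SMG8 was used here) and in 33.25% of the 14090 windows of genes tested. The E-box was in 2 of 15 windows and in 8.35% of those of genes tested, and the GC box in 7 of 15 and 24.69%. The core of the amino acid response element, TGATGNAA, which the stress factor ATF4 is known to bind, was found on neither strand in any of the 15 windows, and in 1.63% of those of genes tested. At that share, 15 windows are too few for an absence to be read. Of the 15 windows of 9 mRNAs described as NMD targets below, only 1 held the core, a window of ATF3. These matches describe letters and are not binding sites.

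The paralogs UPF3A and UPF3B bridge UPF2 and the exon junction complex, and UPF3B is regarded as the more active in NMD in human cells. UPF3B was at 15.7, 14.76 and 15.53 FPKM in siControl and at 18.15, 16.93 and 17.55 FPKM in siOXTR. Its groups did not overlap, and it was 1.14-fold higher (log2 change 0.18, SE 0.0403, limma adjusted p = 0.00159). UPF3A was at 20.93, 20.14 and 20.81 FPKM in siControl and at 20.6, 18.45 and 18.49 FPKM in siOXTR. Its groups overlapped, since siOXTR library 1 lay within the siControl range (log2 change -0.10, SE 0.0453, limma adjusted p = 0.059). Without that library the log2 change of UPF3A was -0.15 and the adjusted p was 0.00429. UPF3A has processed copies annotated as pseudogenes, so its level is uncertain to the extent that the counting could split reads among them.

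The balance of the 2 paralogs shifted toward UPF3B. The ratio of UPF3A to UPF3B was 1.33, 1.36 and 1.34 in siControl and 1.13, 1.09 and 1.05 in siOXTR. UPF3A stayed the higher of the pair in FPKM in every library, by a smaller margin in siOXTR. The log2 ratio fell by 0.30 (SE 0.033) in siOXTR, with no overlap between the groups. The exact two-sided permutation p was 0.1, the smallest that 3 against 3 libraries can give. A ratio within a library does not depend on the scaling between libraries.

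SMG1 is the kinase that phosphorylates UPF1, and SMG8 and SMG9 form a complex with it that restrains its activity. SMG1 was at 23.63, 21.31 and 22.26 FPKM in siControl and at 25.56, 28.67 and 26.64 FPKM in siOXTR. All siOXTR libraries were above all siControl libraries (log2 change 0.26, SE 0.049, limma adjusted p = 6.20e-04). SMG1 has several partial copies on its own chromosome annotated as pseudogenes, and how the authors assigned shared reads is not given in the sources used here. Its partners went down while it went up. SMG8 was at 17.31, 15.86 and 16.71 FPKM in siControl and at 13.94, 14.37 and 14.19 FPKM in siOXTR, a log2 change of -0.22 (SE 0.0404, limma adjusted p = 5.33e-04). SMG9 was at 22.78, 23.86 and 23.23 FPKM in siControl and at 21.02, 21.71 and 22.06 FPKM in siOXTR. The groups of both genes were apart, but the log2 change of SMG9 was only -0.10 (SE 0.0342, limma adjusted p = 0.016) and lost its call under median-ratio scaling (adjusted p = 0.162), without siControl library 2 (0.0635), without siOXTR library 1 (0.0556) and with a GC and length trend removed (0.168).

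SMG5 and SMG6 act after UPF1 is phosphorylated. SMG6, the endonuclease that cuts the target near the stop codon, had the lowest FPKM of the factors. It was at 7.32, 6.23 and 7.38 FPKM in siControl and 5.59, 5.56 and 5.84 FPKM in siOXTR. Its groups did not overlap, although siControl library 2 was nearer to the siOXTR libraries than to the rest of its group (log2 change -0.26, SE 0.0633, limma adjusted p = 0.00331). An antisense gene is annotated within SMG6, and whether counting used strand is not given in the sources used here. SMG5, an adaptor that helps recruit decay enzymes and the phosphatase that resets UPF1, had the highest FPKM of the factors. It was at 49.78, 50.29 and 48.0 FPKM in siControl and at 43.62, 46.33 and 45.89 FPKM in siOXTR, a log2 change of -0.12 (SE 0.0326, limma adjusted p = 0.00533). The groups were apart by less than 2 FPKM, and under median-ratio scaling the adjusted p of SMG5 was 0.0568.

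**Figure D2:**
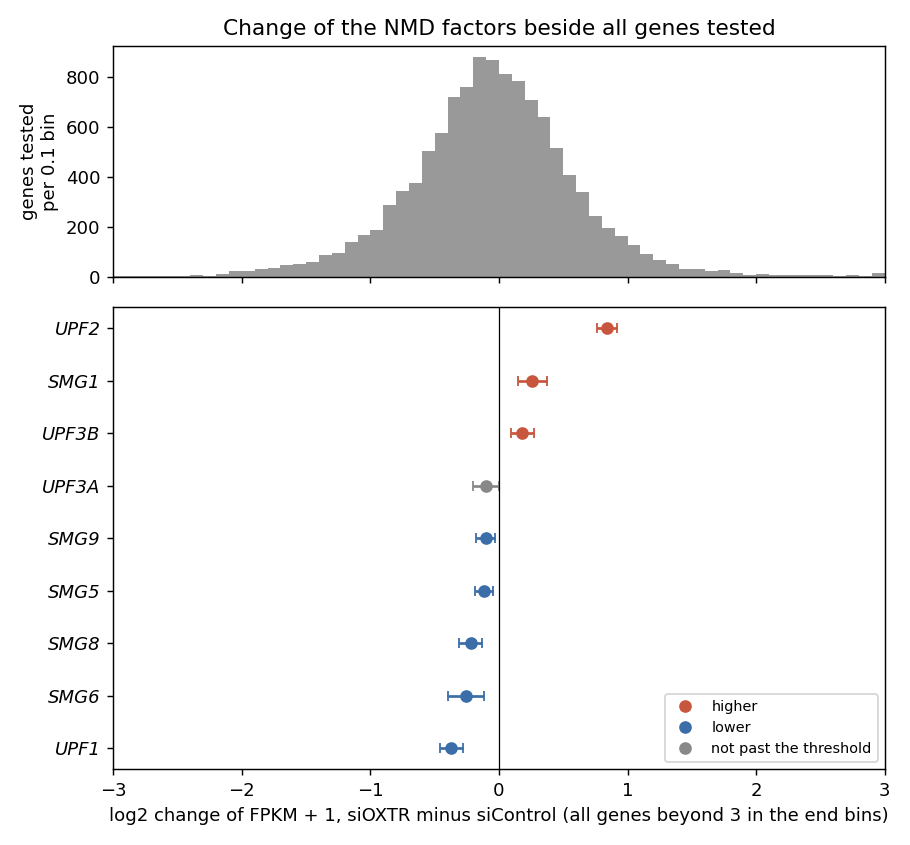
Log2 change of each NMD factor with its 95% confidence interval (lower panel; red higher, blue lower, grey not past the threshold) below the distribution of the log2 change of all 11655 genes tested (upper panel). UPF2 at 0.84 lies to the right of most genes, and the other 8 factors lie between -0.37 and 0.26, within the bulk of the distribution.

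Apart from UPF2, the changes were small for this comparison. In size without regard to sign, the median log2 change of the 9 factors was 0.22, against 0.37 for all genes tested, and 8 of the 9 lay under that median. The share of genes tested with a larger change in either direction was 17.0% for UPF2, 50.5% for UPF1, 64.0% for SMG1 and for SMG6, 69.3% for SMG8, 73.7% for UPF3B, 82.5% for SMG5, 85.0% for SMG9 and 85.4% for UPF3A.

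Because the changes offset each other, the summed level of the 9 factors was similar in both groups. The sum was between 196 and 198 FPKM in siControl and between 196 and 199 FPKM in siOXTR, so its groups overlapped. The make-up of the sum differed. UPF2 contributed 6.77 ± 0.0693% of it in siControl and 12.5 ± 0.458% in siOXTR (SD, n = 3), and UPF1 contributed 14.7 ± 0.656% and 11.2 ± 0.404%. These are shares of transcript levels, and say nothing of protein.

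Ratios between interacting factors were computed after the values had been seen and are given as a description. The ratio of UPF2 to UPF1 was 0.479, 0.447 and 0.459 in siControl and 1.14, 1.03 and 1.17 in siOXTR. In FPKM, UPF2 was thus below UPF1 in siControl and slightly above it in siOXTR. The counter and its handling of length are not known, so an order between different genes holds for FPKM only. The ratio of SMG1 to UPF1, kinase to substrate, was between 0.714 and 0.853 in siControl and between 1.16 and 1.26 in siOXTR. The ratio of SMG5 to SMG6 was between 6.5 and 8.07 in siControl and between 7.8 and 8.33 in siOXTR, with overlapping groups.

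**Figure D3:**
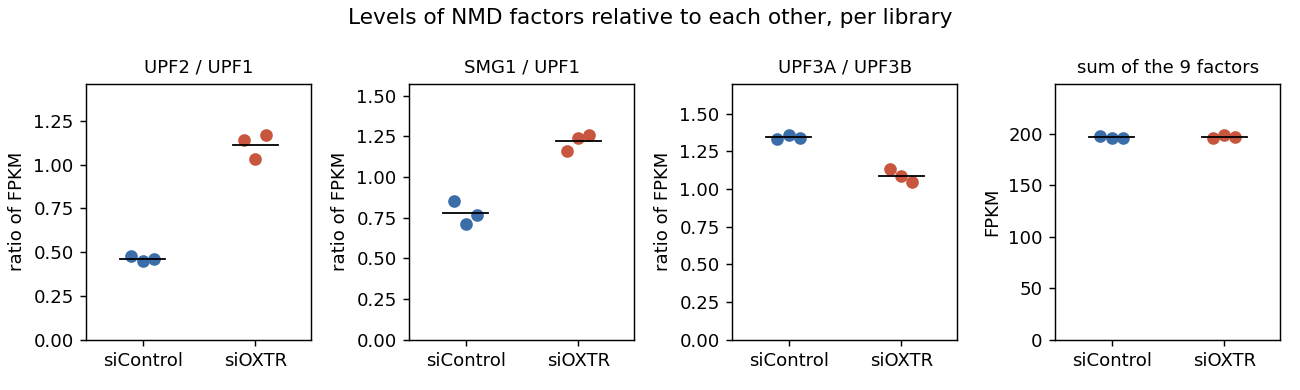
Ratio of FPKM of UPF2 to UPF1, SMG1 to UPF1 and UPF3A to UPF3B, and the FPKM sum of the 9 factors, in each library (points; siControl blue, siOXTR red; line at the mean, axes from 0). The ratio of UPF2 to UPF1 passes from at most 0.479 to at least 1.03, while the sum stays between 196 and 199 FPKM.

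The order of the FPKM levels changed as well. In siControl the order from high to low was SMG5, UPF1, SMG9, SMG1, UPF3A, SMG8, UPF3B, UPF2 and SMG6, and SMG9 and SMG1 were the one pair of neighbours whose libraries overlapped. In siOXTR it was SMG5, SMG1, UPF2, UPF1, SMG9, UPF3A, UPF3B, SMG8 and SMG6, and UPF1 and SMG9 were the one overlapping pair. SMG5 was the highest and SMG6 the lowest in both groups, at 49.4 and 6.98 FPKM in siControl. UPF2 climbed from the eighth place to the third.

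The transcripts of the factors differ in the features that NMD is known to read. Properties were taken from the longest principal coding transcript of each gene in GENCODE release 29. None of the 9 had an exon junction more than 50 bases after its stop codon, the classical trigger of the pathway, which 0.233% of genes tested had. Choosing a coding transcript leaves out those that GENCODE classes as nonsense-mediated decay products. Both values therefore follow largely from that choice, and the absence cannot be read as a trait of the factors. A long 3′ UTR is another feature, and 6 of 9 had one of at least 1000 bases, beside 52.7% of genes tested. The longest were those of SMG1 (4716 bases) and SMG9 (3604 bases), of which the first rose and the second fell, and the shortest was that of SMG8 (237 bases). ATG triplets before the start codon can open upstream reading frames: the 474-base leader of UPF2 held 13, a number reached by 1.93% of genes tested, whereas no other factor had more than 1. That UPF2 transcript begins downstream of the start whose upstream sequence is given above. Transcripts that GENCODE classes as nonsense-mediated decay products were annotated for 3 of 9 factors, SMG1, SMG8 and SMG9, and for 43.9% of genes tested.

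GC content, among several transcript properties compared, also divided the factors by direction. Neither this property nor the GC limits used below were planned before the directions were known. The 3 that rose had the lowest values, 40.3% for UPF2, 41.8% for UPF3B and 43.2% for SMG1, and the others ranged from 47.8% for SMG8 to 60.5% for UPF1. Across the 11585 genes tested with a matched transcript, the log2 change had a Spearman correlation of -0.008 with GC content (genes are not independent replicates). The median log2 change was -0.04 for the 3798 genes with a GC content of at most 44% and -0.07 for the 3557 with at least 55%. After a trend on GC content and length was removed from each library, the log2 change was 0.86 for UPF2, 0.31 for SMG1, 0.14 for UPF3B and -0.32 for UPF1. UPF3A then passed (-0.15, limma adjusted p = 0.00914).

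The genes with the most similar course were found by the distance between log2 values centred on their own mean over the 6 libraries. Nearest to UPF2 were RAB22A (root-mean-square distance 0.0175), CDK7 (0.0201) and ZFR (0.0202), with log2 changes of 0.85, 0.84 and 0.82. Nearest to UPF1 were TSPAN5 (0.0229), OSTM1 (0.0236) and MYRF (0.0249), with log2 changes of -0.38, -0.38 and -0.37. With 2 groups such likeness is common: 635 genes lay within 0.1 of UPF2 and 1746 within 0.1 of UPF1.

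Of 10 other proteins placed in the pathway, 6 rose and 4 fell, so all 10 passed, where 82.5% of all genes tested did (median log2 change 0.12). The largest change was in SEC13, known in NMD and as a coat protein of transport from the endoplasmic reticulum, which rose from 64.8 ± 2.45 to 124 ± 2.04 FPKM (log2 change 0.93, limma adjusted p = 7.80e-10). DHX34, a helicase that promotes UPF1 phosphorylation, rose 1.88-fold (0.83) and GNL2, a nucleolar GTPase, 1.49-fold (0.56). RUVBL1 and PPP2CA rose by 0.22 or less on the log2 scale. The call of NBAS (0.10, limma adjusted p = 0.0471) was lost under 6 of 15 alternatives, among them with no filter (0.0643) and without siControl library 1 or 2 or siOXTR library 2 or 3 (0.0867, 0.161, 0.101 and 0.149). The 4 that fell were PNRC2, which links UPF1 to decapping (-0.47), PPP2R1A, the scaffold subunit of the phosphatase PP2A (-0.33), the helicase MOV10 (-0.26) and the ATPase RUVBL2 (-0.22), which forms a complex with RUVBL1.

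The exon junction complex went both ways within its core. EIF4A3, the helicase that clamps the RNA, fell from 113 ± 2.89 to 90.5 ± 2.83 FPKM (log2 change -0.32, limma adjusted p = 2.86e-06) and RBM8A, its core partner, had a log2 change of -0.37. MAGOH, which pairs with RBM8A, rose (0.21), as did RNPS1 (0.20), CASC3 (0.18), the disassembly factor PYM1 (0.38) and MAGOHB (0.15), a near-identical copy of MAGOH whose reads may not be separable. The call of MAGOHB (limma adjusted p = 0.0445) was lost with no filter (0.0913) and without any one library other than siOXTR library 2 (adjusted p from 0.0572 to 0.168). ACIN1 fell (-0.15), and CWC22 (0.09), which passed under 3 of 15 alternatives, and SAP18 (0.00) did not pass. In all, 5 of 10 rose and 3 fell (median log2 change 0.12), where 37.7% of all genes tested rose and 44.8% fell.

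Of 6 genes of translation termination, 4 rose and 2 fell (median log2 change 0.15), where 82.5% of all genes tested passed. The split was 4 and 1 under median-ratio scaling and 3 and 1 under quantile scaling, with no share of all genes tested given for either. ETF1, the release factor that recognises stop codons, rose from 78.2 ± 1.86 to 120 ± 0.419 FPKM (log2 change 0.62, limma adjusted p = 3.94e-09). GSPT1, its GTPase partner, had a log2 change of 0.19 and the ribosome recycling factor ABCE1 of 0.20, and PABPC1, the poly(A)-binding protein that favours normal termination over NMD, of 0.10, which became 0.03 under quantile scaling and no longer passed (adjusted p = 0.291). PABPC4 (-0.17) and GSPT2 (-0.11), a paralog of GSPT1, fell. The call of GSPT2 (limma adjusted p = 0.0251) was lost under both scalings and without siControl library 1 or 3 or siOXTR library 2 or 3 (adjusted p from 0.058 to 0.284). PABPC1 and the GSPT genes have close copies, so their levels are uncertain to that extent.

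Enzymes that complete the decay changed in no common direction. Of 11 decapping and 5′-to-3′ decay genes, 4 rose and 2 fell (median log2 change 0.07). The decapping activator EDC3 rose from 11.7 ± 0.0987 to 21.8 ± 0.567 FPKM (0.84, limma adjusted p = 4.30e-09), and the decapping enzyme DCP2, PATL1 and XRN2 had log2 changes of 0.50, 0.25 and 0.08, the last of which lost its call without siControl library 1 (adjusted p = 0.101) or siOXTR library 2 (0.0768). The scaffold EDC4 (-0.46) and the scavenger enzyme DCPS (-0.78) fell. DCP1A (0.02), DCP1B (0.22), DDX6 (0.00), LSM1 (0.07) and the exonuclease XRN1 (-0.04) did not pass. Of these, DCP1B passed under 4 of 15 alternatives (limma adjusted p from 0.00583 to 0.046) and LSM1 under 1 (0.0404). Of 12 deadenylation genes, 2 rose and 6 fell (median log2 change -0.09). The split was 4 and 6 under quantile scaling, for which no share of all genes tested is given. The deadenylases CNOT6 (-0.78), CNOT8 (-0.63) and CNOT7 (-0.26) had the smallest adjusted p, and the 2 that rose, PAN3 (0.38) and PAN2 (0.24), form a separate deadenylase. Of 14 exosome and SKI genes, 5 rose and 6 fell (median log2 change 0.01). EXOSC9 (-0.58) and EXOSC6 (-0.40) fell, and EXOSC10 (0.33), EXOSC8 (0.35), TTC37 (0.31), DIS3 (0.28) and SKIV2L (0.18) rose. By list, 54.5% of the decapping and 5′-to-3′ decay genes passed, 66.7% of the deadenylation genes and 78.6% of the exosome and SKI genes. Among all genes tested, 37.7% were higher and 44.8% lower. Over the 6 lists together, 49 of 63 genes passed (77.8%), near the background of 82.5%.

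**Figure D4:**
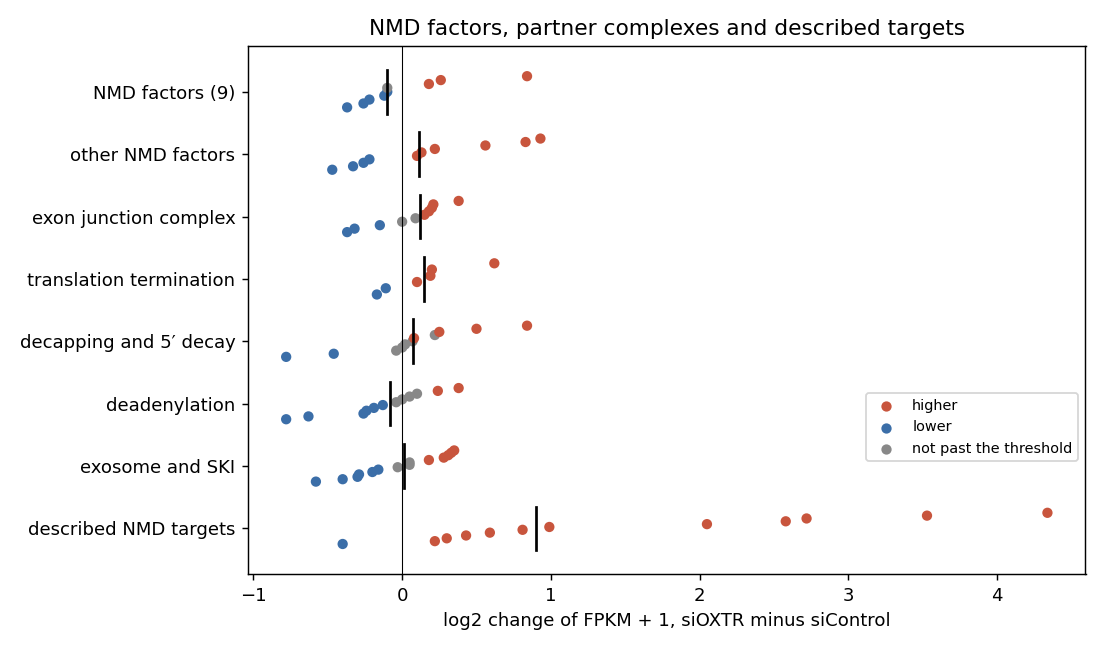
Log2 change of each tested gene of the 9 NMD factors, of 6 lists of partner and decay genes and of mRNAs described as NMD targets (points; red higher, blue lower, grey not past the threshold), with the median of each list as a black line. The medians of the factor and enzyme lists lie between -0.10 and 0.15, and that of the described targets at 0.90.

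Messages described as natural targets of NMD were mostly higher in siOXTR. Of 12 such mRNAs, 11 rose and 1 fell (median log2 change 0.90), where 37.7% of all genes tested rose and 44.8% fell. The list was written with earlier results of these data known, so its direction is not independent evidence. DDIT3, a stress transcription factor, rose from 12.0 ± 0.517 to 262 ± 13.2 FPKM, UPP1, a uridine phosphorylase, from 59.1 ± 1.52 to 396 ± 10.5 FPKM, and ATF3 from 5.64 ± 0.414 to 75.5 ± 0.781 FPKM. ATF4 had a log2 change of 2.05, the cystine transporter gene SLC7A11 of 2.58, the stress sensor gene ERN1 of 0.99 and NAT9 of 0.81. Smaller increases were those of GADD45A (0.59), TBL2 (0.43), TNFRSF10B (0.30) and MAP3K14 (0.22). GADD45B, another gene named as a target, fell from 15.3 ± 0.536 to 11.4 ± 0.421 FPKM (-0.40, limma adjusted p = 7.89e-06). Several of these mRNAs, DDIT3, ATF3, ATF4 and SLC7A11 among them, also belong to the integrated stress response, so slower decay and more transcription cannot be told apart from these levels. The factors known as feedback targets did not move as one with the list: UPF2, SMG1 and UPF3B rose and UPF1, SMG5 and SMG6 fell. The snoRNA host transcripts that are classical targets were not analysed here.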

How the data were processed

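RNA-seq of SNU449 cells was analysed in 6 libraries, grouped by the labels as siControl (n = 3) and siOXTR (n = 3). The deposited values are FPKM, per the file headers, with 2 decimals; libraries followed the BGISEQ-500 protocol, per the labels. The sources used here name no aligner, counter, strand setting, genome build or filter. Depth is unknown. Of 4951 low values, 16.0% lay within 0.1 of a whole multiple of the gene's lowest value, and no whole reads could be recovered. Evenly spread remainders would give 20%, but values close to the lowest were left out, so the chance share of this selection is not known. Precision is given by the spread between libraries.

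Values were taken as log2(FPKM + 1), and the 11655 genes with at least 1 FPKM in at least 3 libraries, including all 9 factors, went into a fit with limma (version 3.58.1, in R 4.3.3; group as factor, empirical Bayes with trend, two-sided, Benjamini-Hochberg over all genes tested, threshold 0.05). The script was tested on simulated data that held far fewer changed genes than passed here, so that test does not bear on the share that passed. A log2 change understates the change of low genes; a fold is a ratio of mean FPKM. All factors were named; of other lists, the 3 members with the smallest adjusted p, those past the threshold against the majority, and further ones named after their values were seen. The members, lists and motifs were chosen with earlier results of these data known, and a result that the lists would take is not reported here. Transcript properties came from GENCODE release 29; NCBI gene IDs gave a match for 99.4% of the tested genes. Alternatives were pseudocounts of 0.1 and 0.01, filters (none, 5 FPKM), scaling by median ratio or by quantiles, robust empirical Bayes, a replicate block and leaving out each library; removal of a loess trend (span 0.5) on GC content and length was added after seeing the data.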

Additional observations from a re-analysis of the deposited data

How the results depend on the processing

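All 9 factors kept their direction under all 15 alternatives. UPF2 stayed between 0.82 and 0.89 and UPF1 between -0.40 and -0.32 on the log2 scale, and UPF2, UPF1, UPF3B, SMG1, SMG6 and SMG8 kept their call under each. Under median-ratio scaling the count of lower factors was 3 and the median log2 change of the 9 was -0.06; that scaling moved the median of all genes tested from -0.057 to -0.013. The same-numbered libraries of the groups had correlations of their deviations from the group mean of -0.012, -0.073 and 0.039. Values near 0 cannot tell whether the numbers pair samples with a small shared effect. With the replicate block, 3 factors were higher and 6 lower, the added one being UPF3A (limma adjusted p = 0.0441). NBAS then lost its call (0.0506), and the other lists gave 27 higher and 23 lower. Over the 6 other lists, the counts were 26 higher and 23 lower, with 32 and 22 under median-ratio and 29 and 21 under quantile scaling. Both scalings shifted the tested genes as a whole upward, quantile scaling to a median of 0.003. Shares of tested genes past the threshold under either scaling are not given here. The list counts under these scalings, single lists included, therefore have no background to be read against. For the other listed genes, OXTR and the genes nearest to UPF2 and UPF1, 1226 comparisons were made, in which 23 lost and 17 gained a call. None changed direction where either value passed. Some that passed in neither did, such as XRN1, at -0.04 in the main fit and 0.04 under quantile scaling. Calls at log2 changes near 0.1 varied: SMG9 lost its call under 4 alternatives and SMG5 under 1, and UPF3A gained one under 3, with the block, without siOXTR library 1 and with the GC and length trend removed (adjusted p from 0.00429 to 0.0441). Depth is unknown.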
